A study of Mus musculus with 20 samples.

Results

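The liver makes hepcidin, the hormone that sets the body's iron balance, and buffers metals with metallothioneins. RNA levels of 10 genes of these systems were compared between 4 groups of mouse livers. The genes were taken by their symbol from a table of read counts with 48440 genes: Hamp and Hamp2 (hepcidin and its copy), Bmp6 and Id1 (a ligand that raises hepcidin and a target gene of its pathway), Slc40a1, Tfrc, Trf and Slc39a14 (iron export, uptake, carriage in plasma and import of unbound metal), and Mt1 and Mt2 (metallothioneins). All 10 were among the 16071 genes with enough reads to be tested. The 20 livers came from female wild-type C57BL/6 mice, 5 in each group, with which the experiment was done from an age of 8 weeks. Every mouse had received antibody injections into the abdomen, either a monoclonal antibody that neutralises acyl-CoA-binding protein (αACBP, labelled DBI) or an isotype control antibody (Isotype, labelled IgG). Either corticosterone (CORT), the main glucocorticoid hormone of mice, or vehicle was given over the same 5 weeks, and the livers were taken after that. The groups are called by antibody and then drink, from Isotype + Vehicle to αACBP + CORT, and no group was left without an antibody. Whole liver was sequenced, so a lower level can mean fewer cells of the type that makes the RNA or less RNA per cell, and these cannot be told apart.

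Between 14934926 and 20299999 reads per liver were assigned to genes. Levels are given as CPM, reads of a gene per 1e+06 reads on genes after TMM scaling of the libraries, and 3 counts correspond to at most 0.205 CPM. A gene was called changed when edgeR's quasi-likelihood test gave a Benjamini-Hochberg adjusted p of at most 0.05 and the log2 fold change was at least 1 in size. The 6 hepatocyte markers, Alb among them, were detected in every liver and summed to between 37047 and 135916 CPM. Their median sum was 106129 CPM in Isotype + Vehicle and 112815 CPM in Isotype + CORT. It was 81960.5 CPM in αACBP + Vehicle, whose replicate 5 had the lowest sum, and 90715 CPM in αACBP + CORT. Of these markers 0 of 6 were called in any comparison. Markers of Kupffer cells, the macrophages that recycle red cell iron, summed to between 464 and 921 CPM in Isotype + Vehicle and between 155 and 452 CPM in Isotype + CORT, and 7 of the 10 fell in that comparison, in which 1.94% of all tested genes were called in either direction. In the αACBP groups the same sum lay between 591 and 985 CPM with vehicle and between 591 and 819 CPM with CORT. With αACBP under CORT 3 of the 10 rose, where 0.597% of all tested genes were called in either direction. Markers of sinusoidal endothelial cells, the source of BMP6 in the liver, summed to between 299 and 587 CPM over all livers, and none of 9 was called in any comparison. By adjusted p alone, which 3.2% of all tested genes passed with CORT under isotype, 1 of the 9 fell there. B cell markers summed to between 41.5 and 62.4 CPM in Isotype + Vehicle and between 3.59 and 18.7 CPM in Isotype + CORT, with 1 of 5 called, and 1 of 3 neutrophil markers fell in that comparison too. The T and NK cell sum had a median of 6.56 CPM in Isotype + Vehicle and of 2.46 CPM in Isotype + CORT, with 0 of 6 called. With αACBP under vehicle, where 1.3% of all tested genes were called, the stellate cell sum went from between 164 and 264 CPM to between 141 and 168 CPM, with 1 of 7 called. The cholangiocyte sum went there from a median of 80.4 to one of 38.3 CPM, with 0 of 5 called. The part of these cells in the differences below was not tested.

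Hepcidin is a peptide secreted by hepatocytes that binds the iron exporter ferroportin (Slc40a1) and removes it from the cell surface, so that less iron leaves macrophages and the gut. When iron is plentiful, endothelial BMP6 acts on BMP receptors of the hepatocyte, and SMAD proteins then switch on Hamp together with Id1, while interleukin 6 raises Hamp through STAT3. Metallothioneins are small cysteine-rich proteins that bind zinc and copper. The zinc-sensing factor MTF1 induces their genes through metal response elements, and glucocorticoids and inflammation induce them as well.

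The hepcidin and metallothionein promoters are shown because metal, glucocorticoid, BMP and interleukin 6 signals are known to act through short elements in such promoters. Promoter windows from RefSeq (build GRCm38.p6) were held for 6 of the 10 genes, and the part from 250 bases before to 30 bases after the start site is printed for 4 of them. Mt1 lies at chr8:94178839-94179118 and Mt2 at chr8:94172368-94172647, both on the plus strand. Capitals mark TGCNCNC on either strand, a loose pattern for the core of the metal response element that allows any base at each N.
Mt1: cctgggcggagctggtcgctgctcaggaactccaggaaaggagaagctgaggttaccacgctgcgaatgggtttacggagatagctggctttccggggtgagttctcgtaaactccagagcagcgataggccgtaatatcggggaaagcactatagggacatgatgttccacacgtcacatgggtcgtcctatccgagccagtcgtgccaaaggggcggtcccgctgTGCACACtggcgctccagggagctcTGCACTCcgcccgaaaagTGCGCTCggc
Mt2: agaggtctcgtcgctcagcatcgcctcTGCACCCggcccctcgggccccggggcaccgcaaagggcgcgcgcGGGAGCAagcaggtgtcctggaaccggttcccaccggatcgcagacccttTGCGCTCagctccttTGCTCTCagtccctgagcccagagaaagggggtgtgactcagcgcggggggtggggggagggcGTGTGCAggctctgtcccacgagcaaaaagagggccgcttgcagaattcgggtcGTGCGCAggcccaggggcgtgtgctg
The loose pattern occurred at 3 places in Mt1 and at 6 places in Mt2, but 51% of the 32851 RefSeq promoter windows hold it at least once. Read on their own strands, the Mt2 matches TGCTCCC and TGCTCTC have T at the first N, where all Mt1 matches have A or G. A glucocorticoid receptor pattern, GNACA and TGTNC with 3 bases of any kind between them, was found in Mt1 from 94 to 82 bases before the start and in 0.475% of all windows. Mt2 held no match to that pattern in this window. The windows of the hepcidin genes, Hamp at chr7:30944000-30944279 and Hamp2 at chr7:30924152-30924431, both on the minus strand, are printed with the SMAD element GGCGCC and the STAT element, TTC and GAA with 3 bases of any kind between them, in capitals.
Hamp: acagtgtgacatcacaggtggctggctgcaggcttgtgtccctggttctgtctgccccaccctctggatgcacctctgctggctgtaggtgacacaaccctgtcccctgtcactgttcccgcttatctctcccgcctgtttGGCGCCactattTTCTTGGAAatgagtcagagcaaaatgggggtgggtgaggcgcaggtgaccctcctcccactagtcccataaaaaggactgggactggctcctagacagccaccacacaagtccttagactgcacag
Hamp2: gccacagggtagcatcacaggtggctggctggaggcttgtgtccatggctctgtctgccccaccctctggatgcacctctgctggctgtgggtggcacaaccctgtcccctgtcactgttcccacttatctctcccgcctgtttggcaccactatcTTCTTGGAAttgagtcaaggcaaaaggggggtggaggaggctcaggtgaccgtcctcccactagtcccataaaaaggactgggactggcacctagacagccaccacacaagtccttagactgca
Over 297 aligned bases of the 300-base windows the hepcidin promoters were 92.9% identical, against 55.7% over 264 bases for Mt1 and Mt2. The SMAD element, present in 11.9% of all windows, lay from 109 to 104 bases before the start of Hamp. Hamp2 differed within it by the substitution G145A, counted from 1 at the 5′ end of the Hamp window with the base of Hamp first, and held no match to the element. The STAT element, present in 8.3% of windows, was found in both genes.

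**Figure D1:**
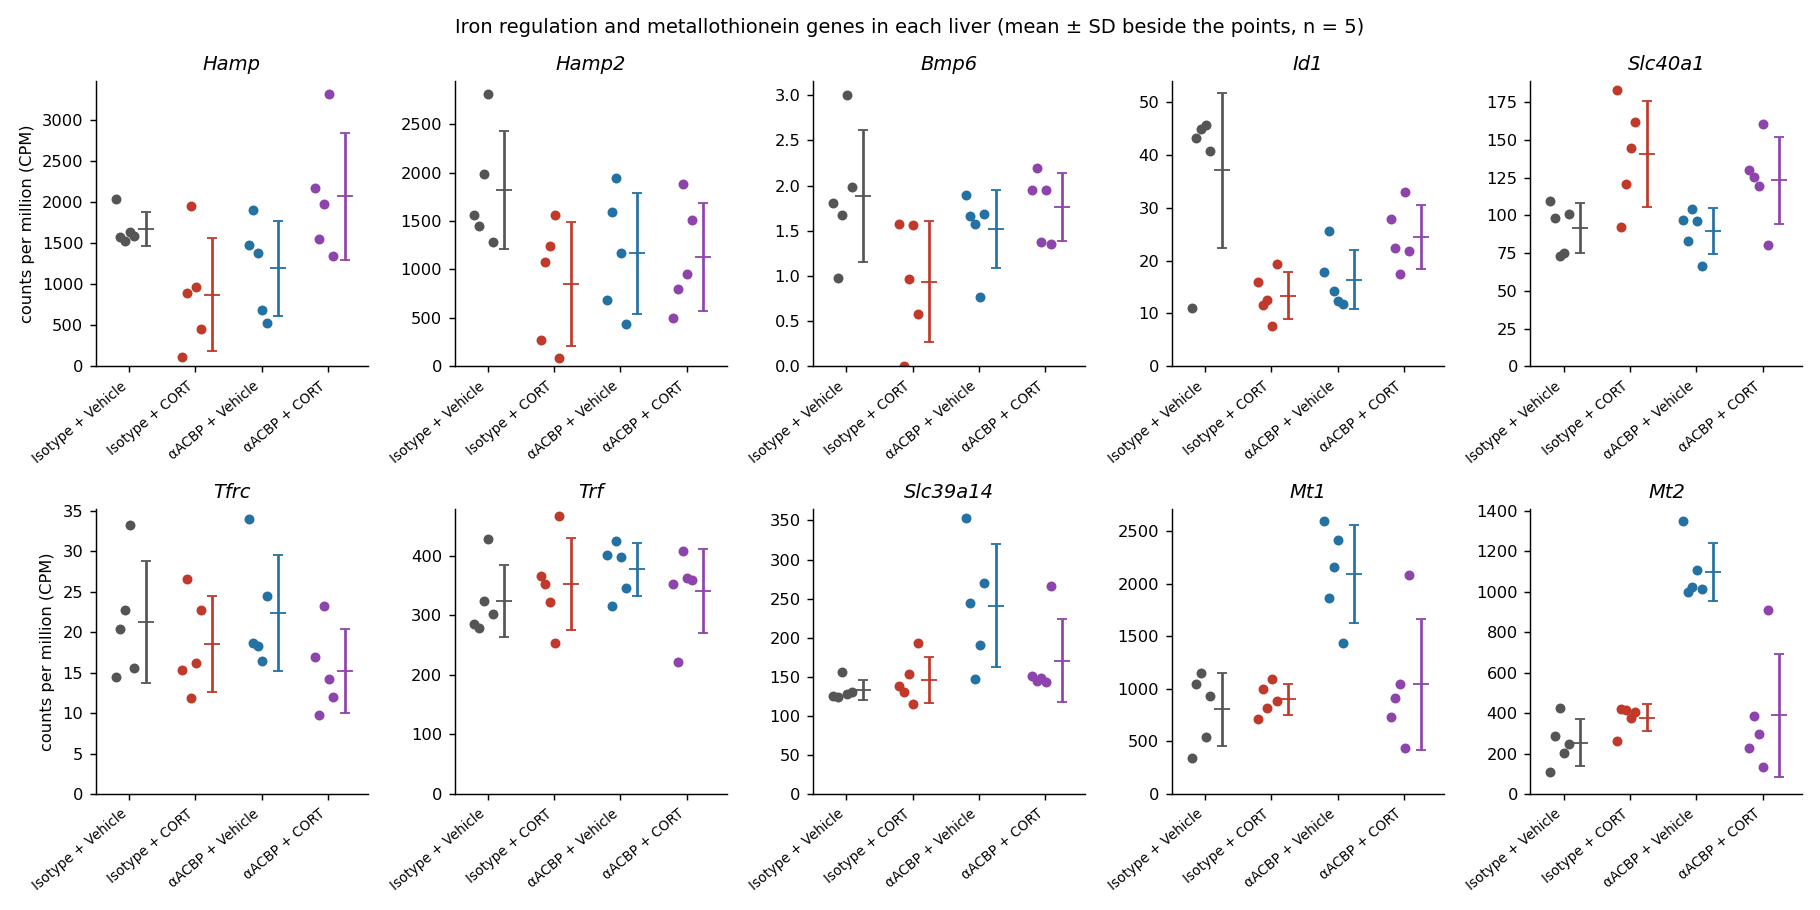
Level of each of the 10 genes in each liver in CPM on linear axes from 0, by group, with the mean and SD (n = 5) beside the points. Mt2 lay at 999 CPM or more in all 5 αACBP + Vehicle livers and at 423 CPM or less in every liver of the isotype groups, and Id1 was high in 4 of the 5 Isotype + Vehicle livers.

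The genes spanned a wide range of levels. Per kilobase of exon, the Isotype + Vehicle mean was 2983 ± 1004 CPM for Hamp2, 1879 ± 236 CPM for Hamp, 646 ± 275 CPM for Mt1 and 267 ± 122 CPM for Mt2 (SD, n = 5). Trf stood at 56.9 ± 10.7 CPM per kilobase and Id1 at 20.9 ± 8.25 CPM per kilobase. Slc39a14 had 10.997 ± 1.08, Slc40a1 9.72 ± 1.74, Tfrc 3.01 ± 1.07 and Bmp6 0.482 ± 0.186 CPM per kilobase. In this order the ranges of 1 SD around the means overlapped for Hamp2 and Hamp, for Mt1 and Mt2, and for Slc39a14 and Slc40a1, and those of the other neighbours did not. Exon lengths are from GENCODE M39, while the annotation behind the counts is not given in the sources used here. Levels of Hamp2 and Mt2 may also hold reads of the antisense genes described below, so the order is approximate.

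Hepcidin was variable among livers and passed in no comparison. Hamp (chr7:30641766-30643990, minus strand, GRCm39) measured 2041, 1572, 1527, 1636 and 1587 CPM in the Isotype + Vehicle livers. With CORT under isotype it ran from 111 to 1947 CPM, with 893, 961 and 453 CPM between these. The αACBP + Vehicle livers gave 1478, 1898, 1374, 681 and 527 CPM, and the αACBP + CORT livers 2168, 1543, 1971, 3310.3 and 1341 CPM. Thus 4 of 5 Isotype + CORT livers lay below all Isotype + Vehicle livers and below all αACBP + CORT livers, while the 1 at 1947 CPM lay among them. The fitted log2 fold change of Hamp with CORT was -0.94 ± 0.51 under isotype (SE, adjusted p = 0.407) and 0.79 ± 0.51 under αACBP (adjusted p = 0.56). Between the antibodies it was 1.24 ± 0.51 under CORT (adjusted p = 0.314) and -0.49 ± 0.50 under vehicle (adjusted p = 0.668). The difference between the CORT effects under the 2 antibodies, the interaction, was 1.73 ± 0.72 on the log2 scale and missed the limit too (adjusted p = 0.371). The spread of Hamp within groups was wide, with a coefficient of variation of 12.5% in Isotype + Vehicle but 79.3% in Isotype + CORT.

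Hamp2, the second hepcidin gene of the mouse (chr7:30621797-30624106, minus strand), lies beside Hamp. It measured between 1282 and 2810 CPM in Isotype + Vehicle and between 89.3 and 1563 CPM in Isotype + CORT, with 268 and 89.3 CPM in its 2 lowest livers. The ranges were 442 to 1944 CPM in αACBP + Vehicle and 502 to 1878 CPM in αACBP + CORT, and all 4 groups overlapped. With CORT under isotype the log2 fold change was -1.10 ± 0.61 (adjusted p = 0.418), and the other 3 comparisons of a single treatment gave between -0.64 and 0.41. Of its exon bases, 63.8% lie opposite an antisense gene, Gm44662, whose own level was nearly the same in every group (mean 1788 against 1819 CPM in Isotype + Vehicle, and 851.0 against 847 CPM in Isotype + CORT). Whether the counting used strand is not given in the sources used here, so reads of Hamp2 and Gm44662 could not be told apart. The ratio of Hamp to Hamp2 was not fixed: its median was 1.09 in Isotype + Vehicle and 1.92 in αACBP + CORT, and within Isotype + CORT it ran from 0.414 to 5.08. The deviations of Hamp and Hamp2 from their group means had a Pearson's r of 0.532 and a rho of 0.587 over the 20 livers (permutation p adjusted over the 10 pairs of genes computed, 0.296 and 0.167), and r was 0.456 without the 2 livers farthest from the median of Hamp.

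Among the regulators, Id1 was the member that passed in the most comparisons. Id1 encodes an inhibitor of helix-loop-helix factors (chr2:152566218-152579544, plus strand, with 13.7% of its exon bases overlapped by Gm75058). Its levels were 43.2, 44.8, 45.6 and 40.6 CPM in 4 Isotype + Vehicle livers and 11.1 CPM in the remaining one, replicate 1. Isotype + CORT livers held 15.9, 11.6, 12.4, 7.56 and 19.3 CPM, and αACBP + Vehicle livers 17.9, 25.5, 14.2, 12.4 and 11.8 CPM. In αACBP + CORT the levels were 27.8, 22.4, 17.4, 33.0 and 21.8 CPM. With CORT under isotype Id1 fell by 1.47 ± 0.31 on the log2 scale (adjusted p = 0.00735), and the call held in every fit that left out 1 liver (adjusted p from 0.000677 to 0.0214). It was the only member called there, 1 of 10, where 1.94% of all tested genes were called, and also the only one by adjusted p alone, which 3.2% of genes passed. With αACBP under vehicle it fell by 1.18 ± 0.30 (adjusted p = 0.0257), a call that was lost in 5 of 20 fits that left out 1 liver (Isotype + Vehicle replicate 2 or 5, αACBP + Vehicle replicate 1, 3 or 5; adjusted p up to 0.0734) and with the replicate number as a block (adjusted p = 0.0545). These comparisons share the Isotype + Vehicle livers, so the fall in each rests on the same 4 high values.

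In mice that received both treatments Id1 lay between the levels of the high Isotype + Vehicle livers and those of the 2 groups with a single treatment, with overlap of the latter. Its log2 fold change was 0.58 ± 0.30 with CORT under αACBP (adjusted p = 0.427) and 0.87 ± 0.30 with αACBP under CORT (adjusted p = 0.181), and neither passed. The interaction was 2.05 ± 0.43 (adjusted p = 0.0449), and Id1 was the 1 member called of 10, against 0.143% of all tested genes. That call was lost without any 1 of 12 livers, at adjusted p up to 0.0987, while the log2 interaction stayed between 1.91 and 2.29. With the replicate block its adjusted p was 0.0835. Replicate 1 of Isotype + Vehicle, the low liver, was not among the 12.

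Bmp6 itself was at the lower edge of detection (chr13:38529065-38684280, plus strand, with 5.77% of its exon bases overlapped by Txndc5). Levels were 1.81, 0.979, 1.67, 3.01 and 1.98 CPM in Isotype + Vehicle and 1.57, 0, 0.961, 1.56 and 0.58 CPM in Isotype + CORT. In the αACBP groups they lay between 0.771 and 1.90 CPM with vehicle and between 1.35 and 2.19 CPM with CORT. The liver with 0 counts allows up to 3 counts, at most 0.205 CPM, which covers counting error alone. No difference was detectable at this depth, the largest log2 fold change of a single treatment being -1.01 ± 0.78 with CORT under isotype (adjusted p = 0.62). No relation between the deviations of Bmp6, Id1 and Hamp from their group means passed the permutation test over the 20 livers. Pearson's r was 0.051 for Bmp6 and Id1 (rho = 0.132), -0.060 for Id1 and Hamp (rho = 0.050) and -0.132 for Bmp6 and Hamp (rho = 0.191), with a permutation p adjusted over the 10 pairs of 0.833 for each r and of at least 0.827 for each rho. Without the 2 livers farthest from the median of the first gene, r became -0.063, 0.109 and 0.475, so its direction rested on those livers.

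Other targets of the pathway were read from a list of 24 tested genes for BMP and SMAD signalling and iron sensing, in which Id3, a relative of Id1, was called in 4 of the 6 comparisons. Id3 measured 131 ± 29.5 CPM in Isotype + Vehicle, 69.6 ± 31.4 in Isotype + CORT, 63.3 ± 4.90 in αACBP + Vehicle and 195 ± 68.8 in αACBP + CORT (SD, n = 5). It rose with αACBP under CORT by 1.49 ± 0.27 on the log2 scale (adjusted p = 0.00713) and with CORT under αACBP by 1.62 ± 0.27 (adjusted p = 0.0102). With αACBP under vehicle it fell by 1.05 ± 0.27 (adjusted p = 0.0258), and with CORT under isotype its log2 fold change was -0.91 ± 0.27 (adjusted p = 0.0596). Its interaction was 2.54 ± 0.38 (adjusted p = 0.00281). Atoh8, a helix-loop-helix factor that also answers to BMP, rose with αACBP under CORT by 1.12 ± 0.24 (adjusted p = 0.0165), from 32.8 ± 7.07 to 71.2 ± 22.1 CPM. Under vehicle it did not move as Id1 and Id3 did, at 42.5 ± 14.5 CPM with isotype and 43.5 ± 13.5 CPM with αACBP. Smad6 and Smad7 of the list passed in no comparison. Smad6 averaged 9.13 CPM in Isotype + Vehicle, 10.6 in Isotype + CORT, 13.8 in αACBP + Vehicle and 12.4 in αACBP + CORT. Smad7 averaged 17.6, 11.1, 12.0 and 17.4 CPM in the same order.

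**Figure D2:**
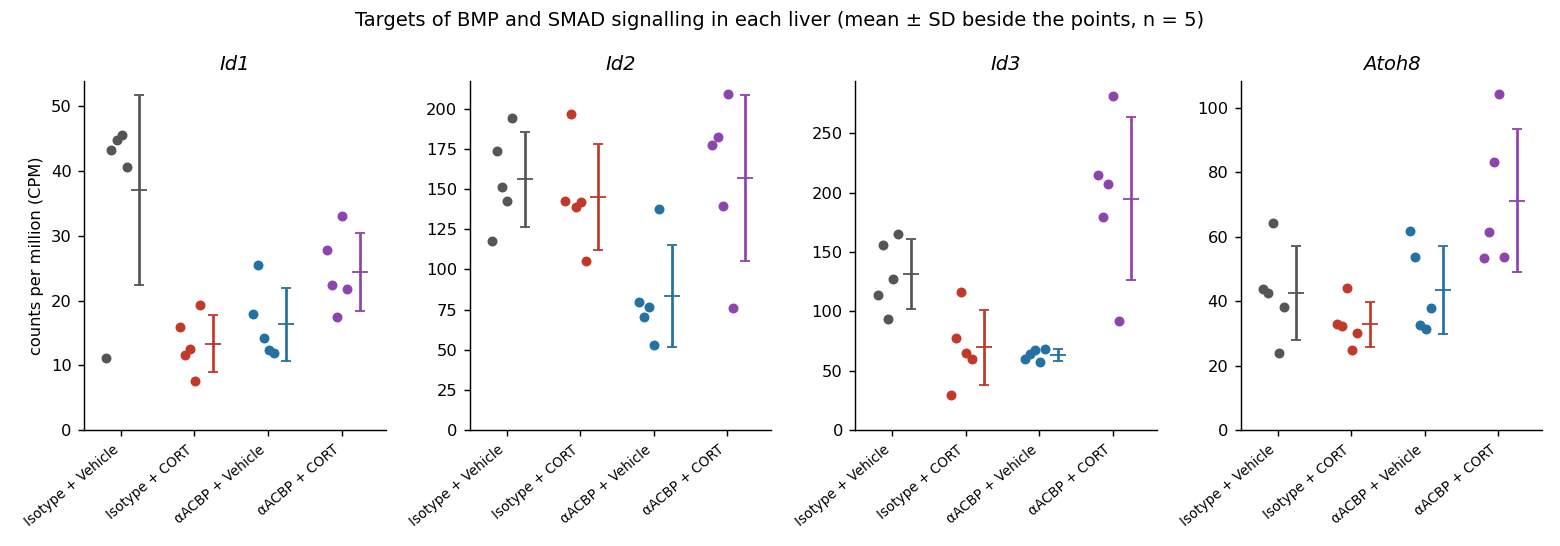
Levels of 4 target genes of BMP and SMAD signalling in each liver in CPM on linear axes from 0, with the mean and SD (n = 5) beside the points. Id3 lay between 57.0 and 68.0 CPM in αACBP + Vehicle and above 179 CPM in 4 of the 5 αACBP + CORT livers, the fifth being replicate 5 at 91.9 CPM.

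In the whole list, 0 of 24 genes were called with CORT under isotype, 2 rose with αACBP under CORT, 1 rose with CORT under αACBP and 1 fell with αACBP under vehicle. The median log2 fold change of the list was 0.07, 0.00089, 0.28 and -0.18 in these, beside 0.0022, 0.011, 0.0067 and -0.019 over all tested genes. The called genes made 1.94%, 0.597%, 0.212% and 1.3% of all tested genes in the same 4 comparisons. By adjusted p alone 3 of 24 fell with αACBP under vehicle, where 5.14% of all tested genes passed in either direction. Besides Id3 these were Id2, by 0.90 ± 0.24 (adjusted p = 0.0284), and the receptor gene Bmpr2, by 0.73 ± 0.18 (adjusted p = 0.0241). The iron sensors Tfr2 and Hfe, the co-receptor gene Hjv, the protease gene Tmprss6 that trims it, and the ligand gene Bmp2 passed in none of the 6 comparisons. Group means were 36.5 to 46.4 CPM for Hfe, 361 to 447 CPM for Tmprss6 and 15.6 to 17.8 CPM for Bmp2. Tfr2 ran from 481 ± 49.2 CPM in Isotype + Vehicle to 609.6 ± 69.6 CPM in αACBP + Vehicle, and Hjv from 233 ± 35.6 CPM in Isotype + CORT to 309 ± 81.1 CPM in Isotype + Vehicle.

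No iron transport gene of the set was called in any comparison. Slc40a1 encodes ferroportin, the exporter that hepcidin removes (chr1:45947211-45965683, minus strand). It measured 110, 98.6, 73.0, 75.5 and 101 CPM in Isotype + Vehicle and 183, 92.5, 121, 145 and 162 CPM in Isotype + CORT. In the αACBP groups the range was 66.5 to 105 CPM with vehicle and 80.1 to 161 CPM with CORT. In each pair 4 of the 5 CORT livers exceeded every vehicle liver. The log2 fold change with CORT was 0.62 ± 0.19 under isotype (adjusted p = 0.0744) and 0.46 ± 0.19 under αACBP (adjusted p = 0.293), neither past the limit. The summed Kupffer cell markers, from cells rich in ferroportin, were at their lowest in Isotype + CORT, and their part in the level of Slc40a1 was not tested.

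Tfrc, the transferrin receptor through which most cells take up iron (chr16:32427556-32451612, plus strand), lay between 9.79 and 34.1 CPM over all livers, and every pair of groups overlapped. Its largest log2 fold change was -0.56 ± 0.27, with CORT under αACBP (adjusted p = 0.385). Trf, the plasma iron carrier transferrin (chr9:103081200-103107814, minus strand), had means of 324 ± 61.1, 353 ± 77.3, 378 ± 44.8 and 341 ± 70.2 CPM (SD, n = 5), given first for the isotype groups and then for the αACBP groups, each with vehicle before CORT. Its log2 fold changes in the 4 comparisons of a single treatment lay between -0.15 and 0.22. The deviations of Tfrc and Trf from their group means had a Pearson's r of 0.591 over the 20 livers (permutation p adjusted over the 10 pairs = 0.0354) but a rho of 0.477 (adjusted p = 0.167), and r was 0.448 without the 2 livers farthest from the median of Tfrc. The relation rested in part on those livers.

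Of 9 tested genes for iron uptake, export and oxidation outside the set, 2 were called, both with αACBP under vehicle, where 1.3% of all tested genes were called. Slc25a28 encodes mitoferrin 2, an iron importer of mitochondria. It rose from 28.1 ± 4.85 to 58.3 ± 2.23 CPM, a log2 fold change of 1.05 ± 0.18 (adjusted p = 0.00288). Steap3, a ferrireductase of the endosome, fell by 1.02 ± 0.29 (adjusted p = 0.0371), from 29.0 ± 4.40 to 14.3 ± 6.36 CPM. The median of the 9 was -0.55 in that comparison, beside -0.019 over all tested genes. No gene of the list for ferritin and iron-responsive RNA control passed in any comparison (0 of 8 tested). Ferritin heavy chain, Fth1, had means of 1362 ± 284, 2214 ± 996, 925 ± 229 and 1468 ± 258 CPM in the 4 groups in the order above. Ferritin light chain, Ftl1, had means from 1135 CPM in αACBP + Vehicle to 2411 CPM in Isotype + CORT. For Fth1 every Isotype + CORT liver lay above every Isotype + Vehicle liver, but narrowly, with a lowest level of 1597 CPM against a highest of 1590 CPM. The highest Isotype + CORT liver had 3925 CPM. The log2 fold change was 0.70 ± 0.24 (adjusted p = 0.106) and did not pass, and the share of all genes without such overlap was not computed.

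Of 21 tested genes for haem and haemoglobin handling, 0 were called in any comparison by edgeR with both limits. By adjusted p alone 2 of 21 passed with CORT under isotype, against 3.2% of all tested genes. With αACBP under vehicle it was 1 of 21, against 5.14%. Lrp1, a receptor that clears haem bound to haemopexin, rose with CORT under isotype by 0.59 ± 0.16 (adjusted p = 0.0344) and with αACBP under vehicle by 0.75 ± 0.16 (adjusted p = 0.00788). Cpox, an enzyme of haem synthesis, rose with CORT under isotype by 0.76 ± 0.21 (adjusted p = 0.0475). None of 9 copper genes passed in any comparison.

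**Figure D3:**
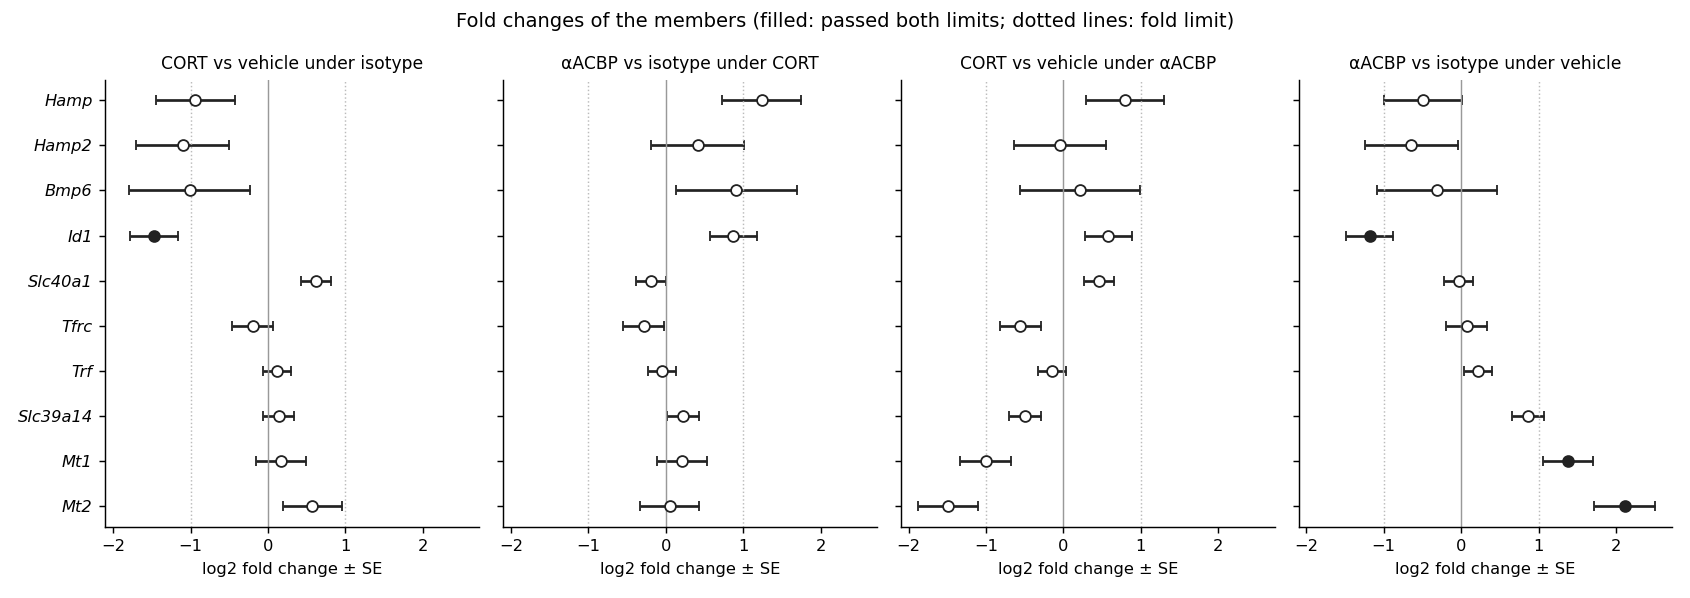
Log2 fold change and SE of the 10 genes in the 4 comparisons of a single treatment, from the fit of all 16071 tested genes. Filled points passed both limits: Id1 at -1.47 with CORT under isotype and at -1.18 with αACBP under vehicle, where Mt1 at 1.38 and Mt2 at 2.12 also passed.

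The metallothioneins rose with αACBP in mice without CORT, and Mt2 by more than any other member called in the 4 comparisons of a single treatment. Mt2 (chr8:94898819-94900207, plus strand) measured 1347, 999, 1023, 1105 and 1014 CPM in αACBP + Vehicle and 108, 287, 423, 201 and 247 CPM in Isotype + Vehicle. No liver of either group reached the range of the other. Isotype + CORT livers held 264, 423, 417, 377 and 404 CPM. In αACBP + CORT the levels were 225, 385, 298 and 135 CPM in 4 livers and 908 CPM in replicate 5. Mt2 rose with αACBP under vehicle by 2.12 ± 0.39 on the log2 scale (adjusted p = 0.00721), and the call held in every fit that left out 1 liver (adjusted p from 0.000298 to 0.0307).

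Mt1 (chr8:94905710-94906955, plus strand) lies next to Mt2 and followed it. Its levels were 2603, 1862, 2158, 2418 and 1435 CPM in αACBP + Vehicle and 347, 1044, 1149.8, 546 and 937 CPM in Isotype + Vehicle, without overlap. Isotype + CORT livers ran from 715 to 1095 CPM. αACBP + CORT livers ran from 437 to 1044 CPM in 4 cases, with replicate 5 at 2085 CPM. The rise with αACBP under vehicle was 1.38 ± 0.33 (adjusted p = 0.0202), and it was lost without Isotype + Vehicle replicate 1 or 5 or αACBP + Vehicle replicate 1, at adjusted p up to 0.0602. With Id1 these made 3 of 10 members called in that comparison, against 1.3% of all tested genes. By adjusted p alone the count was 4 of 10, against 5.14% of genes. Without Isotype + Vehicle replicate 5 or without αACBP + Vehicle replicate 1, Mt2 was the only member called.

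The remaining one by adjusted p was Slc39a14, which encodes ZIP14, a transporter that brings zinc, manganese and iron not bound to transferrin into hepatocytes (chr14:70540678-70588914, minus strand). It measured 353, 244, 148, 191 and 269.8 CPM in αACBP + Vehicle and 126, 125, 156, 128 and 130.1 CPM in Isotype + Vehicle. The rise was 0.86 ± 0.21 on the log2 scale (adjusted p = 0.0184), under the fold limit, with 4 of 5 αACBP livers above all isotype livers. It missed the limit without Isotype + Vehicle replicate 1, 2 or 5 or αACBP + Vehicle replicate 1 (adjusted p from 0.0552 to 0.0751). In αACBP + CORT 4 livers lay between 143 and 151 CPM and replicate 5 at 266 CPM. Its log2 fold change with CORT under αACBP was -0.50 ± 0.21 (adjusted p = 0.289) and its interaction -0.64 ± 0.29 (adjusted p = 0.423).

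With CORT under isotype neither metallothionein passed. The log2 fold change was 0.57 ± 0.38 for Mt2 (adjusted p = 0.539) and 0.17 ± 0.32 for Mt1 (adjusted p = 0.892). In the same livers Fkbp5, a gene that glucocorticoid receptor switches on directly, rose by 1.70 ± 0.26 (adjusted p = 0.000722), from 39.3 ± 9.87 to 128 ± 40.03 CPM. Among the 11 genes of the list for glucocorticoid response it was the only one called, against 1.94% of all tested genes. Of the 11, 4 were higher and 7 lower, with a median log2 fold change of -0.24 beside 0.0022 over all tested genes. With αACBP, Fkbp5 averaged 63.0 ± 24.2 CPM under vehicle and 76.8 ± 19.8 CPM under CORT. In that comparison 0 of the 11 were called, against 0.212% of all tested genes. The deviations of Fkbp5 and Mt2 from their group means had r = -0.141 and rho = -0.021 (permutation p adjusted over the 10 pairs, 0.833 and 0.929), with r at -0.155 without the 2 livers farthest from the median of Fkbp5.

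With αACBP in CORT-treated mice no member was called, 0 of 10, where 0.597% of all tested genes were. DESeq2 called 0 as well, and with edgeR's unadjusted p and the fold limit the count was 1, Hamp. Mt2 differed by 0.05 ± 0.38 (adjusted p = 0.987) and Mt1 by 0.21 ± 0.32 (adjusted p = 0.894). Without αACBP + CORT replicate 5 these became -0.53 and -0.20. With CORT under αACBP the count was again 0 of 10, against 0.212% of genes, with 2, Mt1 and Mt2, both by the unadjusted p and by DESeq2. There Mt2 gave -1.49 ± 0.39 (adjusted p = 0.103) and Mt1 -1.01 ± 0.33 (adjusted p = 0.178). Without αACBP + CORT replicate 5 both fell, Mt2 by 2.07 (adjusted p = 0.000355) and Mt1 by 1.42 (adjusted p = 0.0082), so that 1 liver decided these calls. The interaction of Mt2 was -2.07 ± 0.54 (adjusted p = 0.108) and reached -2.65 (adjusted p = 0.00118) without the same liver. For Mt1 it was -1.17 ± 0.46 (adjusted p = 0.321). αACBP + CORT against Isotype + Vehicle gave no member, 0 of 10, against 0.0684% of genes, also by the unadjusted p and by DESeq2, with log2 fold changes between -0.69 for Hamp2 and 0.62 for Mt2.

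Mt1 and Mt2 moved together from liver to liver. Their deviations from the group means had r = 0.925 and rho = 0.844 over 20 livers, with permutation p adjusted over the 10 pairs of 0.0001 and 0.001. Without the 2 livers farthest from the median of Mt1, r was 0.860. The raw p of 1e-05 for r is the smallest that 1e+05 permutations can give. Their proportion differed between groups. The median ratio of Mt1 to Mt2 in CPM was 3.22 in Isotype + Vehicle (2.72 to 3.79) and 1.93 in αACBP + Vehicle (1.42 to 2.19), and these ranges did not overlap. It was 2.36 in Isotype + CORT (1.97 to 2.90) and 3.23 in αACBP + CORT (2.30 to 3.51). Of the exon bases of Mt2, 82.4% lie opposite an antisense gene, Gm45774, which was not analysed here, and without strand the reads of the pair cannot be told apart. Slc39a14 and Mt2 had r = 0.521 (adjusted p = 0.0308) but rho = 0.371 (adjusted p = 0.197), and r fell to 0.253 without the 2 livers farthest from the median of Slc39a14, so that relation rested on those livers.

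The log2 level of Mt2 over the 20 livers was compared with that of tested genes outside the set. Predicted genes, pseudogenes, genes encoded in mitochondria and genes of low mean level were left out. Mt1, as a member, and Gm45774, as a predicted gene, were thus not ranked. Among the genes ranked, those most like Mt2 were led by 2 genes of the circadian clock. They were Tef (r = 0.881, rho = 0.836) and Dbp (r = 0.871, rho = 0.82), factors that carry clock timing to their target genes, and then Sphk2, a sphingosine kinase (r = 0.853, rho = 0.832). Dbp measured 151 to 611 CPM in αACBP + Vehicle, 5.42 to 23.5 CPM in Isotype + Vehicle and 18.7 to 144 CPM in Isotype + CORT. In αACBP + CORT it lay between 6.44 and 9.61 CPM in 4 livers and at 195 CPM in replicate 5, the liver that was also high in Mt1, Mt2 and Slc39a14. Arntl, a core clock gene that peaks at the opposite time of day, ran the other way, from 1.90 to 13.2 CPM in αACBP + Vehicle and from 28.2 to 40.6 CPM in Isotype + Vehicle. The time of day at which each liver was taken is not given in the sources used here. The clock genes were looked at after the values of these livers had been seen.

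**Figure D4:**
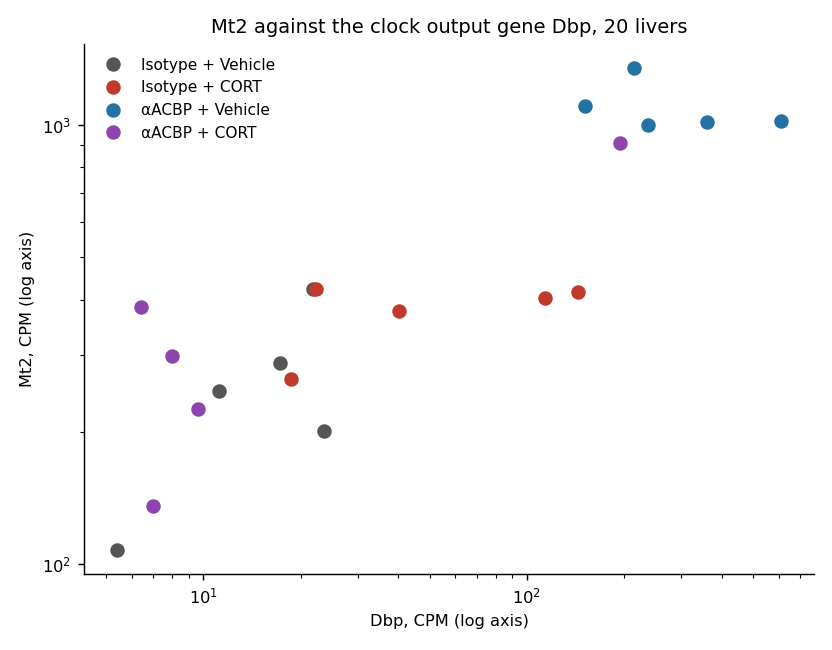
Mt2 against Dbp in each of the 20 livers, in CPM on log axes, coloured by group. All 5 αACBP + Vehicle livers and replicate 5 of αACBP + CORT lie at high Mt2 and at Dbp of at least 151 CPM, while 2 Isotype + CORT livers have Dbp of 144 and 114 CPM with Mt2 at 417 and 404 CPM.

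An index of 10 clock genes, the mean of their scaled levels with sign, was entered as a covariate. With it Mt2 with αACBP under vehicle was 1.10 ± 0.41 on the log2 scale (adjusted p = 0.915), Mt1 was 0.66 ± 0.40 (adjusted p = 0.98) and Slc39a14 was 0.27 ± 0.26 (adjusted p = 0.996), and 0 of the 16071 genes were called. The index ran from 0.453 to 1.46 in αACBP + Vehicle and from -1.02 to -0.032 in Isotype + Vehicle, without overlap, so antibody and clock state cannot be told apart in mice without CORT. Id1 with CORT under isotype was -1.54 ± 0.33 (adjusted p = 0.00678) and was as large as without the covariate. The other 2 calls of Id1 were lost with it, at larger fold changes: -1.38 ± 0.44 with αACBP under vehicle (adjusted p = 0.836) and 2.37 ± 0.65 for the interaction (adjusted p = 0.432). Within groups, deviations of Dbp and Mt2 had r = 0.675 (adjusted p = 0.0354) and rho = 0.405 (adjusted p = 0.197), and r was 0.442 without the 2 livers farthest from the median of Dbp.

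Of 18 tested genes for zinc sensing and transport outside the set, 0 passed with αACBP under vehicle, the comparison in which the metallothioneins rose, by both limits or by adjusted p alone. The median log2 fold change was -0.048 beside -0.019 over all tested genes. Mtf1 had 18.6 ± 2.08 CPM in αACBP + Vehicle and 19.9 ± 4.05 CPM in Isotype + Vehicle (log2 fold change -0.10 ± 0.21, adjusted p = 0.867). Slc30a1, the zinc exporter that MTF1 also induces, had 18.1 ± 3.32 against 21.6 ± 3.52 CPM (-0.25 ± 0.21, adjusted p = 0.559). With CORT under isotype 1 of the 18 was called, against 1.94% of all tested genes: Slc39a5, the zinc transporter ZIP5, rose from 6.12 ± 1.93 to 24.2 ± 6.69 CPM, by 1.99 ± 0.30 on the log2 scale (adjusted p = 0.000431). By adjusted p alone 2 of the 18 passed there, against 3.2% of all tested genes. The other was Slc30a1, which rose by 0.77 ± 0.21 (adjusted p = 0.0382).

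Of the acute phase genes, which inflammation induces in hepatocytes together with Hamp and the metallothioneins, some were called with αACBP in both drinks. With αACBP 4 of 20 rose under CORT and 4 of 20 under vehicle, none fell in either, and Saa1, Saa2 and Saa3 were in both counts. Of all tested genes, 0.597% were called under CORT and 1.3% under vehicle. In the list as a whole 12 of 20 were higher and 8 lower under CORT, and 13 higher and 7 lower under vehicle. The median log2 fold change was 0.16 under CORT and 0.135 under vehicle, beside 0.011 and -0.019 over all tested genes. Saa2 measured 33.1 ± 14.96 CPM in Isotype + Vehicle, 22.8 ± 13.02 in Isotype + CORT, 880.5 ± 866 in αACBP + Vehicle and 934 ± 293 in αACBP + CORT. Within αACBP + Vehicle it ran from 31.2 to 2108 CPM. Lcn2, a carrier of iron-binding siderophores, rose with CORT under isotype by 4.07 and with αACBP under vehicle by 2.87 on the log2 scale. The deviations of Hamp and Saa2 from their group means had r = -0.066 and rho = 0.062 (permutation p adjusted over the 10 pairs, 0.833 and 0.929), with r at -0.208 without the 2 livers farthest from the median of Hamp.

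Over 20 livers, the genes most like Hamp were Pigv (r = 0.871, rho = 0.747), Ccdc38 (r = 0.833, rho = 0.651) and Trp53i11 (r = 0.832, rho = 0.803). Pigv encodes a mannosyltransferase of anchor lipid synthesis and averaged 13.96 ± 4.18 CPM in Isotype + CORT and 20.1 ± 2.18 CPM in αACBP + CORT. These points share their libraries and scaling. The genes were picked as the closest of those ranked, with the same kinds left out as for Mt2, so the values are a description.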

How the data were processed

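Total RNA of 20 livers was sequenced. The authors aligned the reads with HISAT2 and counted them per gene with HTSeq-count (union mode, reads over several features kept), so the deposited values are raw read counts. The submitters' processing notes name mm10 and the paper GRCm39, while the annotation release and strand setting are not given in the sources used here. The 5 closing lines without a gene were left out, and the genes took between 36.6% and 40.4% of all lines per liver. Positions are from GENCODE M39, promoters from RefSeq.

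Counts were tested with edgeR 4.0.16 (R 4.3.3; TMM, filterByExpr, robust quasi-likelihood fit of all 4 groups, Benjamini-Hochberg over 16071 genes), with DESeq2 1.42.0 as an alternative. CPM are TMM-scaled. SE is the log2 fold change over the root of F. Within-group correlations used deviations of log2 CPM (prior count 2) from group means and 1e+05 two-sided permutations within groups. No replicate differed from another by as little as sampling noise (chi-square per degree of freedom at least 12.2 over 40 pairs).

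The 10 genes and all gene lists were chosen with earlier results of these data known. Named besides them are, per list, up to 4 called genes with the smallest adjusted p, and a few iron, zinc and glucocorticoid genes fixed by name. For Hamp, Tfrc and Mt2 these were joined by the 3 genes with the highest Pearson r among those ranked. The genes for Tfrc are not reported here. The genes named by adjusted p alone, the antisense partners and the clock genes were chosen after their values were seen.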

Additional observations from a re-analysis of the deposited data

Results flagged for a closer look

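In 5 of the 40 sets of 5 livers (10 genes in 4 groups), 1 liver stood apart from the others of its group by a gap test, which chance alone gives in about 1 in 20 sets. Replicate 1 of Isotype + Vehicle was the highest of its group for Hamp, at 2041.33 CPM, and the lowest for Id1, at 11.1 CPM. Replicate 3 of the same group was the highest for Slc39a14, at 156 CPM. Replicate 5 of αACBP + CORT was the highest for Slc39a14, at 266 CPM, and the same liver was the highest of its group for Mt1, Mt2 and Dbp. Replicate 1 of Isotype + CORT was the lowest for Mt2, at 264 CPM. The effect of CORT on Id1 differed between the antibodies by 2.05 on the log2 scale in a test of the difference itself (edgeR's quasi-likelihood test, adjusted p = 0.0449).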

How the results depend on the processing

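The number of members called with CORT under isotype (1) and for αACBP + CORT against Isotype + Vehicle (0) was the same under every alternative run. With αACBP under CORT the count was 1 by the unadjusted p. With CORT under αACBP it was 2 by the unadjusted p, 2 by the DESeq2 Wald test and from 0 to 2 when 1 liver was left out, with 2 without αACBP + CORT replicate 5. With αACBP under vehicle it was from 1 to 3 when 1 liver was left out and 0 with the clock-gene index as a covariate, added after the data were seen. For the interaction it was 4 by the unadjusted p, 2 by the DESeq2 Wald test (Id1 and Mt2), 0 with the clock-gene index and from 0 to 2 when 1 liver was left out, with 0 in 12 of 20 such fits and 2 without αACBP + CORT replicate 5. The cause was not tested, though each fit with a liver left out has fewer samples.

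With the replicate number as a block the count was 1 with CORT under αACBP (Mt2, adjusted p = 0.0499) and 0 for the interaction. The numbers do not pair the livers: over 30 same-numbered pairs the correlation of deviations lay between -0.0999 and 0.0969, and 4 of 20 livers correlated best with their own number. The block turned Mt2 with αACBP under CORT to -0.107.

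Some changes that had not passed turned direction in other fits. With the clock-gene index Mt1 with CORT under isotype became -0.030 (from 0.17), Slc40a1 with CORT under αACBP -0.043 (from 0.46), Slc39a14 there 0.114 (from -0.50) and its interaction 0.179 (from -0.64) on the log2 scale. With 1 liver left out Mt1 ran from -0.026 to 0.322 with CORT under isotype and from -0.205 to 0.405 with αACBP under CORT, and Mt2 there from -0.531 to 0.268. Slc40a1 with CORT under isotype kept its direction and stayed under the fold limit in these fits. It ran from 0.493 to 0.726 with 1 liver left out (edgeR's adjusted p from 0.0367 to 0.2045). With the index it was 0.77 ± 0.19 (adjusted p = 0.0204). Of all 60 fold changes of the 10 genes in 6 comparisons, 0 turned under DESeq2 size factors, no filter, library sizes without the 20 most abundant genes, a fit of the compared groups alone (50 fold changes) or the DESeq2 Wald test, 2 under the block, 11 with a liver left out and 14 with the index. With at least 10 counts in every liver Bmp6 was not tested, and the interaction has no fit with fewer groups. Depth limits Bmp6, at 9 to 48 counts in 19 livers and 0 in 1.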
